A study of Mus musculus with 47 samples.

Results

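Mouse embryonic stem (ES) cells without any of the 4 TCF/LEF factors were set against wild-type ES cells, both grown as naive cells. The comparison took the 3 arrays of the 4XKO line (Tcf7-/- Tcf7l1-/- Tcf7l2-/- Lef1-/-) and the 3 arrays of the wild-type line (WT) in naive (ESC) culture, which is 6 of the 47 arrays of the series. All 25697 probes of the Illumina mouse array were used, and they gave 16593 named genes. ESC culture was serum-free N2B27 medium to which PD0325901 (1 uM, an inhibitor of the ERK-activating kinase MEK), CHIR99021 (3 uM, an inhibitor of Gsk3) and LIF (1000 U/mL) were added. Both lines therefore received CHIR99021. A 3XKO line (Tcf7-/- Tcf7l2-/- Lef1-/-, which keeps Tcf7l1) and a KO line (Tcf7l1-/-) in the same medium, with 3 arrays each, were used as further comparisons. So were 4XKO and WT epiblast-like cells (EpiLC), grown with Fgf2 at 12 ng/mL in place of LIF and the inhibitors, also with 3 arrays each. A separately processed set of WT arrays gave cells in LIF+PD+24hrCH, which had LIF and PD0325901 for 24 hours and then 3 uM CHIR99021 for 48 hours by the label, and cells in LIF+PD, with 3 arrays each. The protocol calls replicates biological triplicates, and the labels name 1 line for each genotype. A p value thus reflects how far arrays of the same group scatter, pooled over the groups of a fit, and not how far lines of the same genotype would differ. The loss of the factors cannot be told apart from anything else in which the lines differ.

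TCF/LEF proteins bind DNA through an HMG box and are the main DNA-binding partners of beta-catenin. When Gsk3 is inhibited, beta-catenin escapes degradation, enters the nucleus and turns TCF/LEF-bound genes on, whereas without it the factors recruit Groucho/TLE corepressors. In mouse ES cells Tcf7l1 is the most abundant of the 4 and is known mainly as a repressor of genes of the naive pluripotency network, and its relief from the chromatin is held to be one way in which CHIR99021 sustains self-renewal.

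Levels below are deposited intensities, given for each array or as a mean ± SD of 3 arrays, and differences are log2 values of 4XKO ESC minus WT ESC ± SE unless another pair is named. A probe counted as above background on an array when it exceeded 13.6 (14.3 in the separate set), and between 44.5% and 44.6% of probes did so on each ESC array. Over the 9821 probes above it on all 12 ESC arrays, each array was closest to an array of its own line (r = 0.990 to 0.993 within 4XKO and 0.991 to 0.994 within WT, across probes, which are not independent replicates). Over all probes, dim ones included, 4XKO replicate 3 and WT replicate 1 were closest to each other (r = 0.977, against 0.967 to 0.974 within 4XKO and 0.970 to 0.974 within WT). Called probes numbered 1221 without the first of these arrays and 1293 without the other, against 1453 with both. Naive markers were present in both lines, with a summed level of 25813.5 to 27793.8 in 4XKO ESC and 28966.7 to 31569.5 in WT ESC over 10 markers. Gata4 and Foxa2 of extraembryonic endoderm, Elf5, Hand1, Ascl2 and Plet1 of trophoblast, and Col1a1, Col3a1, Postn and Dcn of fibroblasts were below background in both lines. Others were above it: 6 of 10 measured endoderm markers in 4XKO ESC and 5 in WT ESC, 4 of 10 trophoblast markers in each line, and 1 of 9 fibroblast markers in 4XKO ESC and 0 in WT ESC. The 5 endoderm markers above background on all 6 arrays differed by -0.83 to 1.04 log2. Summed levels of extraembryonic endoderm markers were 2663.8 to 2849.1 in 4XKO ESC and 2995.9 to 3205.9 in WT ESC (0 of 10 higher, 2 lower). Those of trophoblast were 2506.3 to 2589.5 in 4XKO ESC and 2337.0 to 2803.3 in WT ESC (0 of 10 higher, 1 lower), and those of fibroblasts were 42.2 to 69.8 in 4XKO ESC and 16.7 to 27.0 in WT ESC (1 of 9 higher, Thy1). Their part in the results was not tested. In 4XKO ESC minus WT ESC no chromosome was shifted as a whole: the chromosome medians over 5021 genes with a mean level of at least 100 lay between -0.0452 and 0.0448 log2. In 3XKO ESC minus WT ESC, however, the median was 0.48 log2 on chromosome 1 and -0.23 on chromosome 6, and in KO ESC minus WT ESC it was 0.17 on chromosome 6.

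The targeted genes were examined first. Tcf7l1 stood at 742.8, 661.9 and 637.5 in 4XKO ESC and at 1700.9, 1475.9 and 1321.0 in WT ESC. Every 4XKO array lay below every WT array, a 2.19-fold difference (-1.13 ± 0.10, adjusted p = 1.02e-08), but a signal well above background was left. In the KO line, where Tcf7l1 alone is deleted, it was lower still at 194 ± 20.1, so 4XKO ESC exceeded KO ESC by 1.81 ± 0.10 log2 (adjusted p = 2.79e-13). Tcf7l2 was 72.9, 73.1 and 64.1 in 4XKO ESC and 83.7, 103.0 and 80.1 in WT ESC, which did not pass the test (-0.34 ± 0.18, adjusted p = 0.372). Lef1 was below background on all 6 arrays, and Tcf7 had no named probe. Which exons were removed is not given in the sources used here, so whether these probes read sequence outside the deleted parts was not tested.

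Without the 4 factors, 1453 of 25697 probes were called at an adjusted p under 0.05 (5.65%), 788 higher and 665 lower. Counted once per gene, 627 genes were higher (3.78% of 16593) and 473 were lower (2.85%). Among the 7280 genes above background on all 6 arrays, 512 were higher (7.03%) and 403 lower (5.54%). Most differences among these called genes were small: 64 rose and 53 fell by at least 2-fold, and 6 rose and 9 fell by at least 4-fold. These size counts cover 915 of the 1100 called genes. They leave out genes not above background on all 6 arrays, such as Sp5 and Gm773 below. The call was made with the spread of all 39 arrays of the set, and with the spread of the 6 compared arrays alone 464 probes were called, 212 higher and 252 lower.

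Several direct targets of the Wnt pathway fell. Of 20 measured targets 7 were lower and 0 were higher, against 2.85% of all genes lower, and 9 of the 20 were below background in both lines. The 6 targets above background on all arrays were all on the lower side, with a median of -0.87 against 0.02 over all such genes. Promoters of 3 of the fallen targets are shown so that TCF/LEF sequence matches can be seen beside the values. Each run is 300 bases from the RefSeq table for mouse build GRCm38.p6, read 5′ to 3′ on the gene's strand from 250 bases before the start to 50 after it, with any match to a TCF/LEF motif in capitals. The motif was searched in the form CTTTGAA and in the form CTTTGAT, on both strands, so that it can also read TTCAAAG where the first form lies on the other strand or ATCAAAG where the other form does. Sp5 lies at chr2:70474673-70474972 on the plus strand, Axin2 at chr11:108920099-108920398 on the plus strand, and the start of Tnfrsf19 that holds a match at chr14:61037938-61038237 on the minus strand.
Sp5: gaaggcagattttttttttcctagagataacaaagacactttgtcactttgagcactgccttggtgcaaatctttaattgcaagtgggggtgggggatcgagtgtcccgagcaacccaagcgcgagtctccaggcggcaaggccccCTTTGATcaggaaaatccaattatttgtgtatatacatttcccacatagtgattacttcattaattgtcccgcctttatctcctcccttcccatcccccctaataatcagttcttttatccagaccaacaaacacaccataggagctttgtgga
Axin2: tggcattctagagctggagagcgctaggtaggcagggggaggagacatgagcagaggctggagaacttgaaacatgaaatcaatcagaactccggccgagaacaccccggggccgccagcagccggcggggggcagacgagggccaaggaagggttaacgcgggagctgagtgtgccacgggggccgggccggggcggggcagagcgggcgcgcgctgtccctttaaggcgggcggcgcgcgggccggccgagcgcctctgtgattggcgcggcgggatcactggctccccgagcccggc
Tnfrsf19: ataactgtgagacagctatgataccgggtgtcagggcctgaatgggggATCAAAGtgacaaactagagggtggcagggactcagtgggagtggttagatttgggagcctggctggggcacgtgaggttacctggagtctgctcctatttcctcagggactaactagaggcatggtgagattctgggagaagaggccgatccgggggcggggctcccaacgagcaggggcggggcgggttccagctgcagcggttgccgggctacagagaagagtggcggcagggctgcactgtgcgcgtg
Sp5 holds 1 match, at position -104 from its start, the Tnfrsf19 window holds 1, at -202, and Axin2 holds 0 in this window. The other Tnfrsf19 start and the Cdx2 promoter hold 0 as well. Of all 32851 promoters in the table, 8.65% hold a match. By gene, with any of its promoters counted, the share was 8.65% of 13336 measured genes, 7.07% of 382 that fell and 7.30% of 507 that rose. Of 25 genes raised by CHIR99021 in WT cells 0 hold a match. A match is a description of these letters and not a binding site.

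Axin2 encodes a scaffold of the beta-catenin destruction complex and is a feedback target of the pathway. It was 36.9, 27.1 and 26.1 in 4XKO ESC and 210.4, 213.7 and 170.3 in WT ESC. The groups were far apart, with a 6.64-fold fall (-2.73 ± 0.15, adjusted p = 2.98e-13). Sp5, a zinc-finger transcription factor, was 10.9, 24.2 and 21.3 in 4XKO ESC and 294.1, 291.4 and 317.6 in WT ESC. One 4XKO array was under the background limit, and the fitted fall was 16.9-fold (-4.08 ± 0.37, adjusted p = 8.87e-09). Tnfrsf19, a receptor of the TNF receptor family, had 9.3, 12.3 and 15.5 in 4XKO ESC and 55.0, 56.0 and 73.0 in WT ESC, so that only 1 of the 3 mutant arrays was above background (-2.33 ± 0.18, adjusted p = 2.71e-10). The homeobox gene Cdx1 was 32.5, 30.4 and 35.6 in 4XKO ESC and 126.7, 123.7 and 181.4 in WT ESC (-2.11 ± 0.38, adjusted p = 0.000416). These 4 genes lost most of their signal, whereas the next pair was only partly reduced. Notum, which encodes a secreted esterase that inactivates Wnt proteins, was 145.2, 148.3 and 147.2 in 4XKO ESC and 245.3, 238.6 and 254.1 in WT ESC (-0.74 ± 0.13, adjusted p = 0.000221). The cyclin D1 gene Ccnd1 was 320.9, 261.2 and 264.1 in 4XKO ESC and 475.6, 448.3 and 389.3 in WT ESC (-0.64 ± 0.09, adjusted p = 1.39e-05), and lost its call with the spread of the compared arrays alone (adjusted p = 0.109). The call of Cdx2 rested on intensities near background, with 1 of 3 WT arrays above the limit (adjusted p = 0.0213). It was absent with a floor at the limit (adjusted p = 1) and without 4XKO replicate 1 or 3 or WT replicate 1 or 3 (adjusted p = 0.0612 to 0.12).

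**Figure D1:**
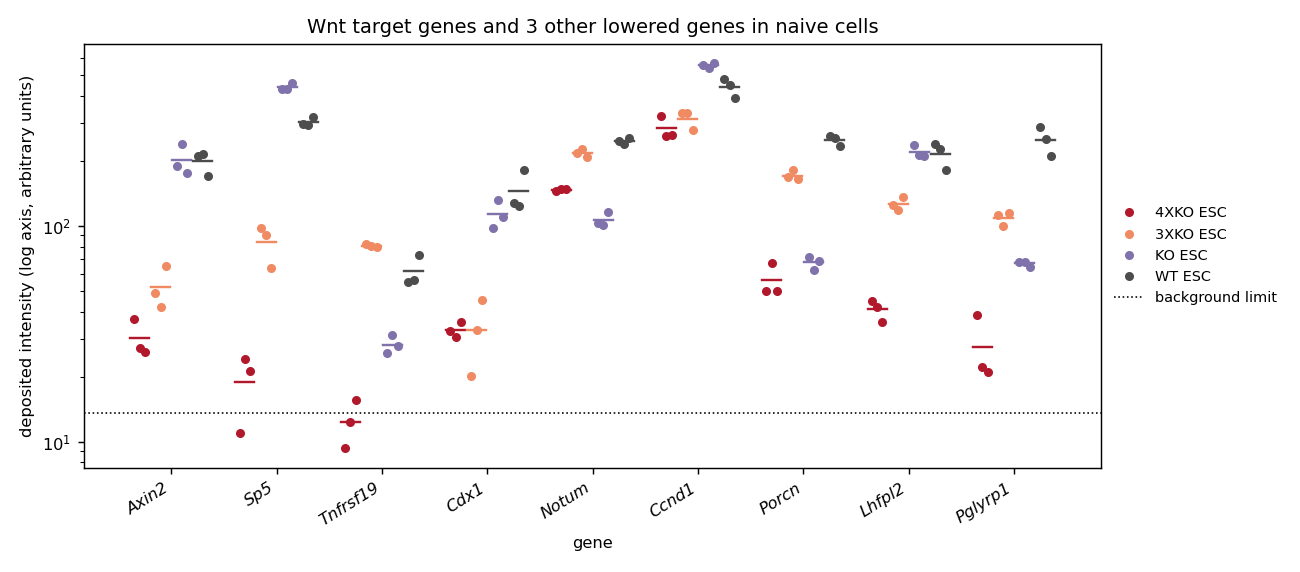
Deposited intensity on a log axis of 6 Wnt target genes and of Porcn, Lhfpl2 and Pglyrp1 in 4XKO, 3XKO, KO and WT ESC, 1 point per array and a bar at the mean of 3. All 4XKO points lie below all WT points for each of the 9 genes, and for Sp5 and Tnfrsf19 some reach the dotted background limit of 13.6.

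Among 36 measured components of the pathway, 3 were lower and 0 were higher, against 2.85% of all genes lower. Porcn, the acyltransferase that attaches the lipid Wnt proteins need for secretion, was 50.0, 67.3 and 49.9 in 4XKO ESC and 259.2, 254.9 and 233.2 in WT ESC, with no overlap (4.51-fold lower, -2.17 ± 0.09, adjusted p = 2.39e-15). Wls, the carrier that brings lipid-modified Wnt proteins to the cell surface, was 15.5, 14.1 and 17.1 in 4XKO ESC and 43.8, 51.8 and 48.6 in WT ESC (-1.63 ± 0.34, adjusted p = 0.00276). Both act at the sending end of the pathway. The receptor gene Fzd10 was 365 ± 45.6 in 4XKO ESC and 531 ± 61.0 in WT ESC (-0.54 ± 0.15, adjusted p = 0.0235). That call was lost without 4XKO replicate 3 (adjusted p = 0.147), WT replicate 1 (adjusted p = 0.0542) or WT replicate 2 (adjusted p = 0.136). The remaining 33 components, among them the other measured receptors, listed members of the destruction complex and the TLE corepressors, were not called. Axin2, a member of that complex that fell, was counted with the targets, and Axin1 and Fzd5 were not measured. Of the 36 components 15 were below background in both lines. In the limma fit 8 had an unadjusted p under 0.05, against 4061 of all 25697 probes. The median of the 17 above background was -0.03.

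The naive pluripotency genes stayed close to their WT levels in this medium. Of 17 measured genes 1 was lower and 0 were higher, against 2.85% of all genes lower. An unadjusted p under 0.05 was found for 6 of the 17, against 4061 of all 25697 probes. Of the 17, 15 were above background on all arrays, with a median of -0.20 against 0.02 over all such genes. Of these 15, 13 were on the lower side. Zfp42 (Rex1), a marker of the naive state, was 3908.9, 3435.1 and 3532.6 in 4XKO ESC and 4870.9, 4700.5 and 5153.4 in WT ESC. The arrays did not overlap and the fall was 1.35-fold (-0.44 ± 0.09, adjusted p = 0.00159), and adjusted p = 0.0687 with the spread of the compared arrays alone. Esrrb, an orphan nuclear receptor that Tcf7l1 is known to repress, was 10073.2, 10073.2 and 9829.4 in 4XKO ESC and 10233.2, 11970.1 and 11311.6 in WT ESC (-0.16 ± 0.06, adjusted p = 0.191). Nr5a2, another nuclear receptor of the network, was 733.7, 710.4 and 816.7 in 4XKO ESC and 951.1, 1123.8 and 964.9 in WT ESC, lower on every array without passing the test (-0.43 ± 0.16, adjusted p = 0.143). Klf2, a Kruppel-like factor, was 2365.0, 2096.4 and 2216.6 in 4XKO ESC and 2490.2, 2324.0 and 2200.3 in WT ESC, with overlapping groups (-0.07 ± 0.09, adjusted p = 0.885). Nanog (-0.10 ± 0.18), Klf4 (-0.16 ± 0.23), Tbx3 (-0.18 ± 0.19) and Klf5 (-0.22 ± 0.09) did not pass either. Tcl1, a coactivator of Akt, was one of the 2 on the higher side, at 2196 ± 117 in 4XKO ESC and 1786 ± 117 in WT ESC (0.30 ± 0.16, adjusted p = 0.392).

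Genes that mark pluripotent cells in general gave 0 calls among 9 measured in the limma fit. Over all genes 3.78% were higher and 2.85% lower, so 0 calls in lists this small is near the share of all genes. Of the 9, 4 had an unadjusted p under 0.05, as had 4061 of all 25697 probes. Pou5f1 (Oct4) was 2648.8, 1924.4 and 1814.2 in 4XKO ESC and 3085.4, 2970.6 and 2759.9 in WT ESC (-0.48 ± 0.15, adjusted p = 0.0562). Its replicate 1 stood closer to WT than the others did, and without that array the difference passed (-0.65, adjusted p = 0.0107). Sox2 was 219.7, 163.0 and 116.9 in 4XKO ESC and 275.0, 319.9 and 255.1 in WT ESC (-0.81 ± 0.29, adjusted p = 0.109), and a further probe of Sox2 differed in the opposite direction. Targets of LIF and Stat3, the other arm that maintains naive cells, gave 0 calls among 11, and cholesterol synthesis genes gave 0 among 9, with 1 in each list at an unadjusted p under 0.05. Of 6 measured genes of the 2-cell-like state 0 were called, with 0 at an unadjusted p under 0.05, and 5 were below background in both lines.

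**Figure D2:**
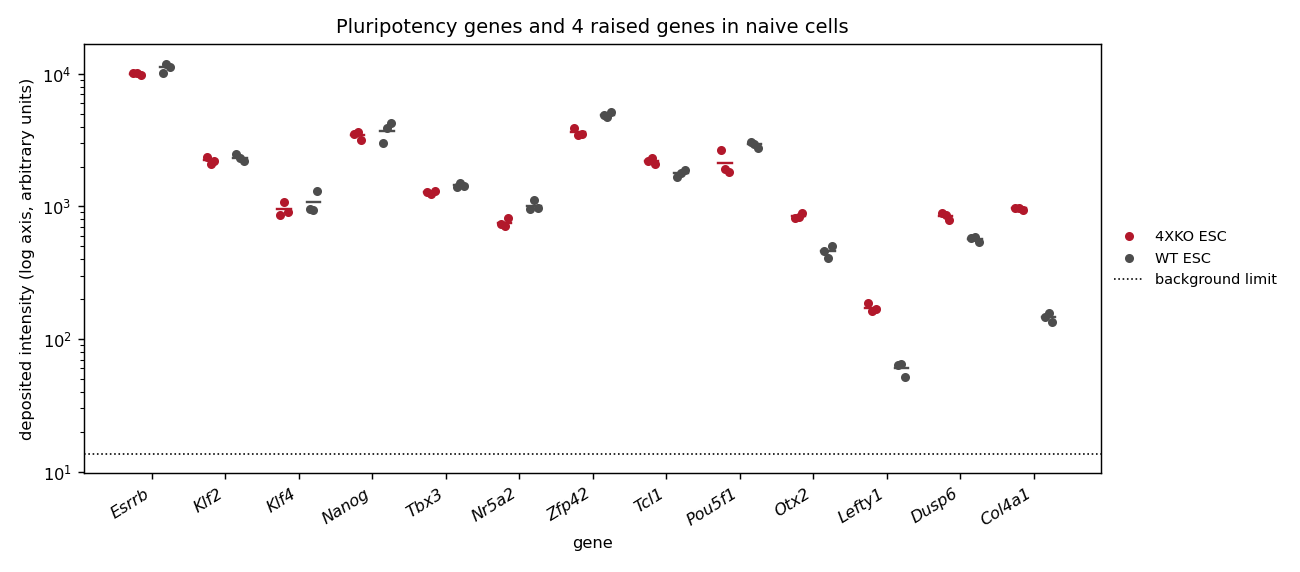
Deposited intensity on a log axis of 9 pluripotency genes and of Otx2, Lefty1, Dusp6 and Col4a1 in 4XKO ESC and WT ESC, 1 point per array and a bar at the mean of 3. Points of the naive genes lie close together or overlap, while all 4XKO points of Otx2, Lefty1, Dusp6 and Col4a1 lie above all WT points.

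Some genes of the next, formative stage rose. Of 17 measured formative and primed genes, 4 were higher and 1 was lower, against 3.78% of all genes higher, and the 7 above background had a median of 0.21. Otx2, a homeobox factor that drives exit from the naive state, was 815.5, 839.3 and 899.6 in 4XKO ESC and 462.4, 411.6 and 501.0 in WT ESC. All mutant arrays were above all WT arrays (1.86-fold, 0.90 ± 0.09, adjusted p = 3.83e-08). Pou3f1, a POU factor of the formative epiblast, was 31.1, 24.2 and 32.3 in 4XKO ESC and below background on every WT array, which makes it at least 2.13-fold higher (adjusted p = 0.000691). It was dim in both lines beside its own level of 2641 ± 87.8 in WT EpiLC. Dnmt3l, a cofactor of the de novo DNA methyltransferases, rose slightly (2280 ± 193 in 4XKO ESC and 1771 ± 116 in WT ESC, 0.36 ± 0.08), whereas the methyltransferase gene Dnmt3b fell by the same amount (848 ± 32.1 in 4XKO ESC and 1087 ± 66.7 in WT ESC, -0.36 ± 0.08). Fgf5 was called with 1 of 3 mutant arrays above the limit (adjusted p = 0.00505), and not with a floor at that limit (adjusted p = 1) or without WT replicate 2 (adjusted p = 0.0531). With the spread of the compared arrays alone, 1 of the 4 risen genes was called, and Dnmt3b was not (adjusted p = 0.0779). In bulk RNA, a few cells in which a gene is high and a small rise in all cells cannot be told apart, as fewer cells of a type and less RNA per cell cannot for genes that fell.

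In the primitive streak list 2 of 19 measured genes were higher, against 3.78% of all genes, and 0 were lower. Lefty1 and Lefty2 encode secreted inhibitors of Nodal and are themselves targets of Nodal signalling. Lefty1 was 186.8, 161.3 and 167.3 in 4XKO ESC and 63.8, 64.7 and 51.4 in WT ESC, a clear 2.88-fold rise (1.52 ± 0.16, adjusted p = 1.82e-07). Lefty2 was 985.9, 856.6 and 949.2 in 4XKO ESC and 566.7, 601.9 and 557.8 in WT ESC (0.69 ± 0.20, adjusted p = 0.032), and its adjusted p was 0.0506 to 0.108 with any 1 of the 6 arrays left out. The feedback genes of FGF/ERK signalling, whose upstream kinase is inhibited in this medium, had 4 of 14 higher, against 3.78% of all genes, and 0 lower, with a median of 0.57 over the 7 above background. Dusp6, an ERK phosphatase, was 886.1, 861.3 and 786.5 in 4XKO ESC and 578.6, 588.4 and 537.4 in WT ESC (0.57 ± 0.08, adjusted p = 6.22e-06). The ETS factor Etv4 was 247.3, 194.6 and 191.6 in 4XKO ESC and 132.0, 161.1 and 130.3 in WT ESC (0.58 ± 0.10, adjusted p = 0.000534). Both sets of arrays were separated, by a narrower margin for Etv4. Egr1, an immediate early gene, was 29.9 ± 6.55 in 4XKO ESC and 14.5 ± 5.91 in WT ESC, with 1 WT array above background (adjusted p = 0.000557). Ier3 was 188 ± 40.8 in 4XKO ESC and 102 ± 9.35 in WT ESC (0.86 ± 0.22, adjusted p = 0.0172). Its call was lost without 4XKO replicate 1 (adjusted p = 0.0627), 4XKO replicate 2 (adjusted p = 0.11) or WT replicate 2 (adjusted p = 0.0789). With the spread of the compared arrays alone, 1 of these 4 genes was called.

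The sharpest rise among listed genes was in type IV collagen, the sheet-forming collagen of basement membranes. Col4a1 was 976.7, 981.2 and 939.5 in 4XKO ESC and 147.5, 157.6 and 133.5 in WT ESC (6.62-fold, 2.73 ± 0.10, adjusted p = 1.76e-16). Col4a2, its partner chain, was 446.8, 502.6 and 406.0 in 4XKO ESC and 79.4, 82.4 and 76.9 in WT ESC (5.66-fold, 2.50 ± 0.13, adjusted p = 7.85e-14). The 2 chains moved alike, while the other basement membrane genes did not follow. Of 10 measured, 1 was lower, the laminin gene Lama1 (1302 ± 132 in 4XKO ESC and 1703 ± 121 in WT ESC, -0.39 ± 0.10, adjusted p = 0.0161), and 7 were not called. The Lama1 call was lost without 4XKO replicate 1 (adjusted p = 0.0619), 4XKO replicate 3 (adjusted p = 0.0969), WT replicate 2 (adjusted p = 0.0903) or WT replicate 3 (adjusted p = 0.0522).

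In the Notch list, 2 of 15 were higher, against 3.78% of all genes, and 0 were lower. Notch4, a receptor, was 746.7, 771.4 and 767.5 in 4XKO ESC and 353.9, 324.2 and 320.7 in WT ESC (2.29-fold, 1.20 ± 0.11, adjusted p = 1.69e-08). Hey1, a transcriptional target of the pathway, was 96.4 ± 7.60 in 4XKO ESC and 64.4 ± 10.2 in WT ESC (0.59 ± 0.12, adjusted p = 0.00123), and was not called with the spread of the compared arrays alone (adjusted p = 0.157). Of 12 germline genes kept silent by DNA methylation in many cells, 2 were higher, against 3.78% of all genes. Asz1, a gene of germ granules, was 412.1, 480.7 and 485.4 in 4XKO ESC and 191.4, 152.4 and 165.3 in WT ESC (1.44 ± 0.13, adjusted p = 4.88e-09), and the testis tubulin gene Tuba3a was 383 ± 56.2 in 4XKO ESC and 237 ± 30.9 in WT ESC (0.69 ± 0.15, adjusted p = 0.00387, and 0.141 with the spread of the compared arrays alone). Of 13 measured genes of G1 control 3 were lower, against 2.85% of all genes, and 0 were higher. The 3 were Ccnd1 and a pair of inhibitors. Cdkn1a (p21), an inhibitor of cyclin-dependent kinases and a p53 target, was 1147.2, 1035.3 and 1138.4 in 4XKO ESC and 2338.0, 2309.6 and 1868.4 in WT ESC (1.95-fold lower, -0.97 ± 0.11, adjusted p = 3.13e-07). Its relative Cdkn1c (p57) was 16.1 ± 3.91 in 4XKO ESC, with 2 arrays above background, and 45.7 ± 3.80 in WT ESC (-1.53 ± 0.14, adjusted p = 1.15e-08, and 0.0635 with the spread of the compared arrays alone). The ligand gene Bmp4 was the 1 called gene of 9 on the BMP list, at 193 ± 14.9 in 4XKO ESC and 277 ± 15.8 in WT ESC (-0.53 ± 0.10, adjusted p = 0.000974), and lost that call with the spread of the compared arrays alone (adjusted p = 0.0646). Of the 4 BMP list genes above background on all arrays 3 were on the higher side, without a call, and the median of the 4 was 0.50.

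The calls in the remaining lists ran in both directions or were few, against 3.78% higher and 2.85% lower of all genes. Of 21 adhesion and cytoskeleton genes 3 were higher, with the integrin gene Itga5 at 0.75 ± 0.11 and the vimentin gene Vim at 0.62 ± 0.12, and 2 were lower, with the focal adhesion gene Zyx at -0.51 ± 0.10. Of 16 glutathione and detoxification genes 2 were higher and 2 lower. Gpx2, a glutathione peroxidase of epithelia, was 57.3, 58.1 and 46.4 in 4XKO ESC and 170.4, 182.6 and 155.5 in WT ESC (-1.66 ± 0.13, adjusted p = 9.80e-10), while the related Gpx3 was 562 ± 71.2 in 4XKO ESC and 354 ± 53.7 in WT ESC (0.67 ± 0.12). Of 12 integrated stress response genes 2 were higher, among them the serine and glycine enzyme gene Shmt2 at 0.59 ± 0.13, of 12 glycolysis and hypoxia genes 1 was higher, and of 11 neural genes 1 was higher. Of 10 p53 and stress genes 1 was higher and 1 lower, which was Cdkn1a, and of 7 genes of DNA methylation 2 were higher and 2 lower, Dnmt3l and Dnmt3b among them. With the spread of the compared arrays alone Vim (adjusted p = 0.14), Gpx3 (adjusted p = 0.169) and Shmt2 (adjusted p = 0.103) were not called.

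**Figure D3:**
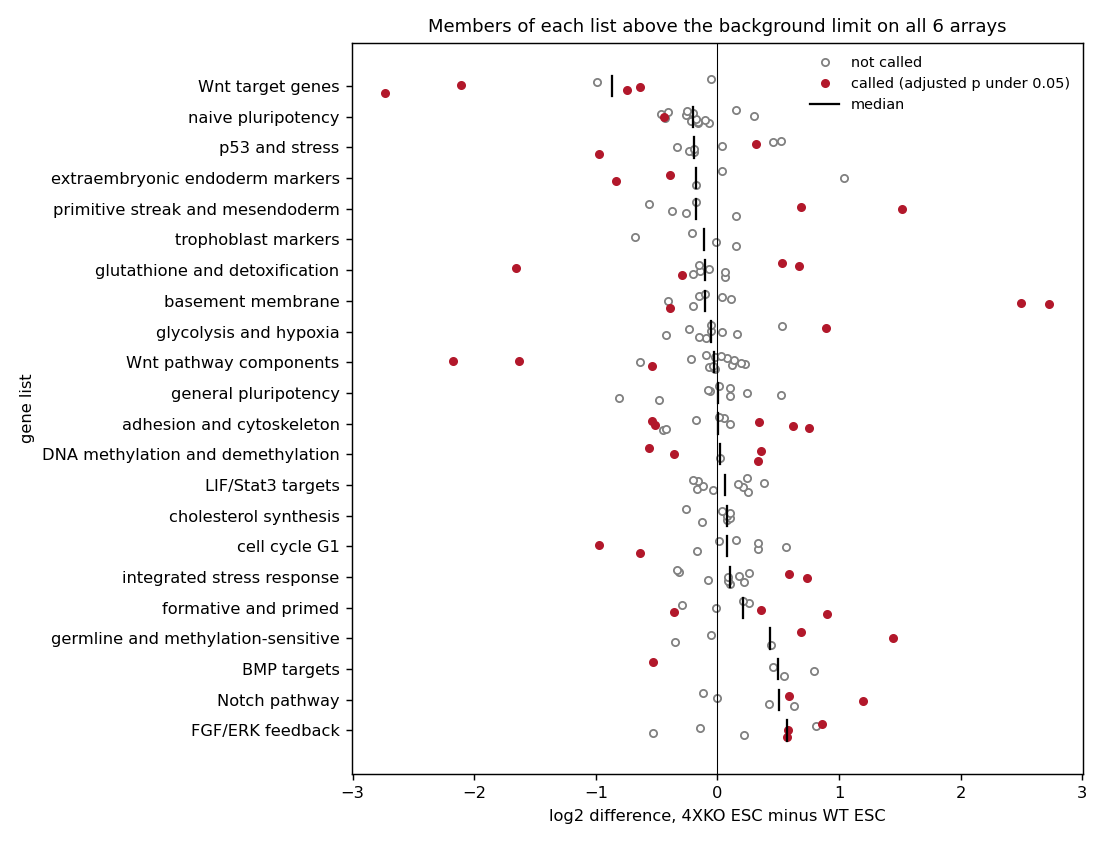
Log2 difference of 4XKO ESC minus WT ESC for list members above background on all 6 arrays, in lists with several such members, 1 point per gene, filled where called, with a bar at the list's median. Wnt targets lie farthest to the left with a median of -0.87, FGF/ERK feedback genes farthest to the right with 0.57, and most lists straddle 0.

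Among the 12 genes outside the lists with the largest rise above background, the melanoma antigen genes Magea5 and Magea2, which are X-linked and normally expressed in testis, were 105 ± 6.84 in 4XKO ESC and 16.2 ± 0.351 in WT ESC (6.46-fold), and 192 ± 18.1 in 4XKO ESC and 32.8 ± 0.173 in WT ESC (5.85-fold). Nlrp4c and Nlrp14, of a family expressed in oocytes, were 141 ± 13.1 in 4XKO ESC and 30.2 ± 1.92 in WT ESC (4.66-fold), and 330 ± 9.92 in 4XKO ESC and 92.2 ± 5.29 in WT ESC (3.58-fold). Fthl17f, an X-linked ferritin-like gene, was 514 ± 11.9 in 4XKO ESC and 154 ± 11.5 in WT ESC (3.35-fold). Gm773, also on the X chromosome, was 161.5, 195.0 and 203.4 in 4XKO ESC and below background on all WT arrays, at least 13.7-fold higher (adjusted p = 8.69e-10). These genes were also high in the 3XKO line, where Magea2 (-0.88 ± 0.19 in 4XKO minus 3XKO), Nlrp4c (-1.38 ± 0.17), Nlrp14 (-0.36 ± 0.11) and Fthl17f (-0.93 ± 0.11) exceeded their 4XKO level. In KO ESC, Magea5 (18.2 ± 1.61), Magea2 and Nlrp4c (35.0 ± 12.8) were not called against WT ESC, while Nlrp14 (0.54 ± 0.11), Fthl17f (0.36 ± 0.11) and Gm773 were higher. The other large rises were in the retinoic acid-binding protein gene Crabp1 (66.8 ± 14.3 in 4XKO ESC and 18.1 ± 2.82 in WT ESC), the receptor gene Cd40 (119 ± 8.40 in 4XKO ESC and 34.7 ± 10.8 in WT ESC), the adhesion molecule gene Mcam (349 ± 18.4 in 4XKO ESC and 112 ± 15.6 in WT ESC), 6430411K18Rik, 4930550L24Rik and 1190005I06Rik, and Igfbp7. Igfbp7, which encodes a secreted binding protein, was 262.8, 334.5 and 450.3 in 4XKO ESC and 94.6, 103.4 and 123.2 in WT ESC (1.68 ± 0.45, adjusted p = 0.022). Its call was lost without 4XKO replicate 2 (adjusted p = 0.059), 4XKO replicate 3 (adjusted p = 0.106), WT replicate 1 (adjusted p = 0.0753) or WT replicate 2 (adjusted p = 0.0678). Igfbp7 (adjusted p = 0.0618), Gm773 (adjusted p = 0.0868) and Cd40 (adjusted p = 0.0682) were not called with the spread of the compared arrays alone.

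The 12 largest falls outside the lists began with Pglyrp1, a peptidoglycan recognition gene, at 38.7, 22.2 and 20.9 in 4XKO ESC and 284.8, 252.3 and 211.1 in WT ESC (9.45-fold, -3.24 ± 0.18, adjusted p = 7.64e-13). Lhfpl2, a membrane protein gene, was 44.7, 42.1 and 35.9 in 4XKO ESC and 239.1, 225.3 and 180.0 in WT ESC (5.24-fold, -2.39 ± 0.13). For both genes the highest 4XKO array was far below the lowest WT array. Bhmt2, which methylates homocysteine, was 106.2, 107.4 and 104.0 in 4XKO ESC and 548.2, 475.1 and 500.0 in WT ESC (4.79-fold, -2.26 ± 0.25). Calb2 (calretinin), a calcium-binding protein gene, was 163 ± 14.6 in 4XKO ESC and 777 ± 60.2 in WT ESC (4.76-fold). Phlda2, an imprinted gene known from placental growth, was 163 ± 29.2 in 4XKO ESC and 660 ± 34.9 in WT ESC (4.08-fold). The basic helix-loop-helix gene Msc was 287 ± 29.5 in 4XKO ESC and 964 ± 43.5 in WT ESC (3.37-fold), and the homeobox gene Crxos, named for its place beside Crx, was 174 ± 19.8 in 4XKO ESC and 512 ± 50.5 in WT ESC (2.95-fold). The rest were 2510009E07Rik (-2.52), Pdlim4 (-1.85), C130074G19Rik (-1.77), Pdzrn3 (-1.64) and Cadps2 (-1.59). Of these C130074G19Rik lost its call whichever of the 6 arrays was left out (adjusted p = 0.0554 to 0.121), and Pdlim4 without 4XKO replicate 1 (adjusted p = 0.0574), WT replicate 1 (adjusted p = 0.0604) or WT replicate 2 (adjusted p = 0.0524). Among genes below background on all 4XKO arrays, Dhrsx was at least 7.47-fold lower (102 ± 12.8 in WT ESC) and Plcl2 at least 3.18-fold (43.4 ± 5.07). Dmgdh, an enzyme gene of choline breakdown, was at least 2.78-fold lower (37.8 ± 2.67). Cadps2 (adjusted p = 0.0815) and Plcl2 (adjusted p = 0.223) were not called with the spread of the compared arrays alone.

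The other mutant lines were compared to see which of these levels 4XKO ESC shared. Against 3XKO ESC, which keeps Tcf7l1, 2382 of 16593 genes were called (14.4%), 1235 higher and 1147 lower in 4XKO, and against KO ESC, which keeps the other 3 factors, 2415 were called (14.6%), 1370 higher and 1045 lower. The called genes were spread unevenly over the chromosomes. On chromosome 1, raised in 3XKO ESC, 240 of 901 genes were lower and 14 higher in 4XKO than in 3XKO, and on chromosome 6, 129 of 917 were higher and 35 lower. Against KO ESC, 108 genes of chromosome 6 were lower and 33 higher. Outside both chromosomes 1092 of 14775 genes were higher and 872 lower than in 3XKO, and 1278 were higher and 897 lower than in KO. Of the 473 genes lower in 4XKO than in WT, 203 were also lower than in 3XKO and 259 lower than in KO, and 116 were below all 3 lines. Of the 627 higher genes, 273 were also higher than in 3XKO and 376 higher than in KO, and 161 were above all 3. Outside chromosomes 1 and 6, 106 genes were below all 3 lines and 157 above. Over all 16593 genes 6.91% were lower than in 3XKO and 6.3% lower than in KO, and 7.44% and 8.26% were higher. These comparisons share the 4XKO arrays with the WT comparison, which by itself makes counts run together.

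Axin2 was 30.0 ± 5.97 in 4XKO ESC, 51.9 ± 11.9 in 3XKO ESC, 201 ± 33.7 in KO ESC and 198 ± 24.2 in WT ESC. It was thus low in both lines without the 3 other factors and at the WT level where Tcf7l1 alone was missing (KO minus WT 0.02 ± 0.15, adjusted p = 1), and lower in 4XKO than in 3XKO (-0.78 ± 0.15, adjusted p = 0.000379). Sp5 followed the same order, at 18.8 ± 6.99 in 4XKO ESC, 83.6 ± 17.9 in 3XKO ESC, 439 ± 18.1 in KO ESC and 301 ± 14.4 in WT ESC. Cdx1 was 32.8 ± 2.62 in 4XKO ESC and 32.7 ± 12.5 in 3XKO ESC, which did not differ by the test (0.08 ± 0.38, adjusted p = 1). Tnfrsf19 had another order, at 12.4 ± 3.10 in 4XKO ESC, 80.6 ± 1.36 in 3XKO ESC, 28.1 ± 2.68 in KO ESC and 61.3 ± 10.1 in WT ESC, so it was low where Tcf7l1 was missing. Porcn was likewise low in 4XKO ESC (55.7 ± 10.02) and KO ESC (67.5 ± 4.56), and less so in 3XKO ESC (171 ± 8.57). Notum was higher in 4XKO ESC (147 ± 1.57) than in KO ESC (106 ± 8.44), by 0.47 ± 0.13 log2 (adjusted p = 0.00982). Pglyrp1 and Lhfpl2 were below all 3 lines, Pglyrp1 by -2.04 ± 0.18 against 3XKO and -1.35 ± 0.18 against KO, and Lhfpl2 by -1.62 ± 0.13 against 3XKO and -2.43 ± 0.13 against KO.

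Risen genes also differed in which lines shared the rise. Notch4 was 762 ± 13.3 in 4XKO ESC, 351 ± 15.5 in 3XKO ESC, 331 ± 14.1 in KO ESC and 333 ± 18.2 in WT ESC, so it was raised in 4XKO alone among the 4 lines (1.12 ± 0.11 above 3XKO and 1.20 ± 0.11 above KO). Otx2 was 852 ± 43.4 in 4XKO ESC, 283 ± 11.1 in 3XKO ESC, 517 ± 42.6 in KO ESC and 458 ± 44.8 in WT ESC, where KO and WT did not differ by the test (0.17 ± 0.09, adjusted p = 0.282). Pou3f1 was above background in 4XKO ESC and below it in the means of 3XKO ESC and KO ESC. Cdkn1a was lower in 4XKO ESC than in 3XKO ESC (-0.72 ± 0.11) and KO ESC (-1.14 ± 0.11). Col4a1, by contrast, was raised in all 3 mutant lines, at 966 ± 22.9 in 4XKO ESC, 591 ± 32.8 in 3XKO ESC, 812 ± 113 in KO ESC and 146 ± 12.1 in WT ESC. Klf2 was 2226 ± 134 in 4XKO ESC, 2265 ± 86.3 in 3XKO ESC, 1265 ± 82.7 in KO ESC and 2338 ± 146 in WT ESC, so that 4XKO exceeded KO by 0.82 ± 0.09 log2 (adjusted p = 3.50e-07). Klf5 (0.58 ± 0.09) and Tbx3 (0.63 ± 0.19) were also higher in 4XKO than in KO. Bmp4 stood between the others, at 193 ± 14.9 in 4XKO ESC, 511 ± 30.2 in 3XKO ESC, 52.9 ± 4.68 in KO ESC and 277 ± 15.8 in WT ESC. Among called genes above background on all arrays of both compared lines, the one farthest above its 3XKO level was Rgcc, a cell cycle regulator. It was 442 ± 40.5 in 4XKO ESC, 24.0 ± 5.64 in 3XKO ESC and 311 ± 32.5 in WT ESC. Farthest below the KO level, within the same limits, was Calb2, at 163 ± 14.6 in 4XKO ESC, 2111 ± 123 in KO ESC and 777 ± 60.2 in WT ESC. Next to it Dppa3 (Stella), a maternal and germline factor encoded on chromosome 6, was 25.7 ± 3.66 in 4XKO ESC, 301 ± 11.3 in KO ESC and 31.0 ± 5.68 in WT ESC.

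Genes that CHIR99021 moves in WT cells were taken from the separate arrays, where LIF+PD+24hrCH minus LIF+PD called 88 probes (0.342%), 48 higher and 40 lower. By gene, 31 were raised (0.187%) and 34 lowered (0.205%), 18 and 18 of them above background on all 6 arrays. This list depended on processing: 8 probes were called with a floor at the background limit and 0 with the replicate number as a block, where 1753 had an unadjusted p under 0.05 in the limma fit. It also depended on single arrays. The split of 48 higher and 40 lower probes became 14 and 45 without LIF+PD replicate 1, 23 and 59 without replicate 2 and 15 and 53 without replicate 3. It became 62 and 16 without LIF+PD+24hrCH replicate 1, 59 and 15 without replicate 2 and 59 and 13 without replicate 3. Of the 31 raised and 34 lowered genes, 6 to 11 and 4 to 13 were in the lists drawn with 1 of these arrays left out. The counts that follow are for the lists from all 6 arrays. Of the 31 raised genes, 15 were lower in 4XKO ESC than in WT ESC, 1 was higher and 15 were not called (48.4% lower, against 2.85% of all genes), with a median of -0.53. Of the 34 lowered genes, 10 were higher, 2 lower and 22 not called (29.4% higher, against 3.78% of all genes), with a median of 0.33. With the lists redrawn without 1 of the 6 arrays, 9 to 37 genes were raised, of which 4 to 8 were lower and 0 higher in 4XKO ESC, and 10 to 42 were lowered, of which 1 to 5 were higher and 1 to 3 lower. Restricted to members above background on all 6 ESC arrays, 14 of 23 raised genes were lower (60.9%, against 5.54%) and 10 of 18 lowered genes were higher (55.6%, against 7.03%).

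Axin2, Porcn, Pglyrp1, Lhfpl2 and 2510009E07Rik were raised by CHIR99021 and lower in 4XKO ESC. Axin2 was 320 ± 24.1 in LIF+PD+24hrCH and 26.9 ± 8.03 in LIF+PD, and Pglyrp1 was 908 ± 175 in LIF+PD+24hrCH and 83.4 ± 21.7 in LIF+PD. Porcn was 42.4 ± 2.50 in LIF+PD+24hrCH and below background in LIF+PD. The rise of 2510009E07Rik was near background, at 15.6 ± 6.68 in LIF+PD+24hrCH and -1.5 ± 3.06 in LIF+PD, beside the limit of 14.3. Further raised genes that were lower in 4XKO ESC were Slc16a9, a carrier of the monocarboxylate family (178 ± 18.9 in 4XKO ESC and 359 ± 20.7 in WT ESC, -1.02), the extracellular matrix gene Fbln1 (264 ± 13.2 in 4XKO ESC and 528 ± 47.5 in WT ESC), the kinase gene Dclk3 (-0.73) and Ddah1 (-0.56). Slc16a9 was 49.7 ± 5.93 in LIF+PD+24hrCH and 11.9 ± 1.81 in LIF+PD, where the mean was under the limit of 14.3. Ddah1 was not called with the spread of the compared arrays alone (adjusted p = 0.0531). The 1 raised gene that was higher in 4XKO ESC was Mapre2 (0.44), which encodes a microtubule end-binding protein, and its call was lost without WT replicate 2 (adjusted p = 0.0796) or WT replicate 3 (adjusted p = 0.0501). The homeobox gene Gbx2 was raised by CHIR99021 (595 ± 66.3 in LIF+PD+24hrCH and 146 ± 23.9 in LIF+PD) and was not called in 4XKO ESC (668 ± 15.2, against 768 ± 20.1 in WT ESC, -0.20 ± 0.08, adjusted p = 0.185). On the other side, Otx2 was 322 ± 23.1 in LIF+PD+24hrCH and 1001 ± 61.7 in LIF+PD, and Lefty1 was 447 ± 40.4 in LIF+PD+24hrCH and 1286 ± 158 in LIF+PD, and both were higher in 4XKO ESC. So were Igfbp7, Crtac1 (921 ± 117 in 4XKO ESC and 352 ± 15.2 in WT ESC, 1.38) and Vstm2l (0.84). Arhgap8 (-0.72) and Tnnt1 (-0.58) were lowered by CHIR99021 and also lower in 4XKO ESC, and the call of Tnnt1 was lost without 4XKO replicate 2 or 3 or WT replicate 2 or 3 (adjusted p = 0.0654 to 0.192). Across the 6530 genes above background in both comparisons the differences correlated at r = -0.347, and at r = -0.535 across the 836 of them called in 4XKO ESC minus WT ESC. These are descriptions across genes on separate arrays, without a p value. In 3XKO ESC 12 of the 31 raised genes were lower and 3 higher than in WT, against 7.45% lower and 7.81% higher of all genes. In KO ESC 10 were lower and 1 higher, against 5.75% and 5.12% of all genes. Of the 34 lowered genes 5 were higher and 4 lower in 3XKO ESC (median -0.01), and 5 were higher and 6 lower in KO ESC (median -0.09). These contrasts share the WT arrays with that of 4XKO.

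**Figure D4:**
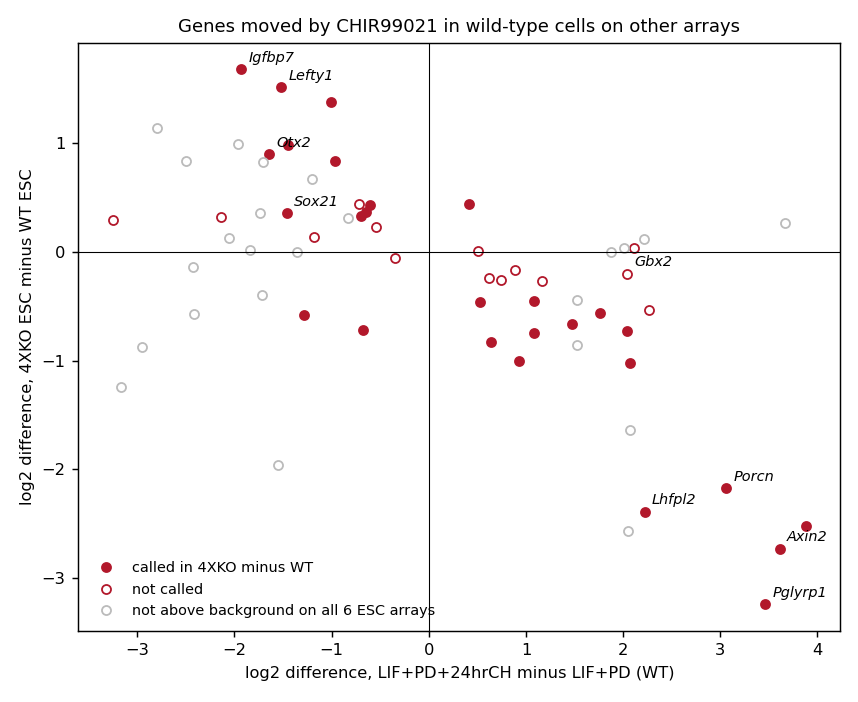
Log2 difference of 4XKO ESC minus WT ESC against that of LIF+PD+24hrCH minus LIF+PD in WT cells for the 31 genes raised and the 34 lowered by CHIR99021, 1 point per gene, filled where called in 4XKO ESC. The 15 raised genes that were lower in 4XKO ESC lie at the lower right and the 10 lowered genes that were higher at the upper left; grey points are genes not above background on all 6 ESC arrays.

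The same 2 lines were finally compared after transfer to Fgf2, where neither inhibitor nor LIF is present. The difference between 4XKO and WT in ESC, minus that in EpiLC, was called for 3695 probes (14.4%), 1825 higher and 1870 lower. Of 6795 genes above background on all 12 arrays 2090 were called (30.8%). Of these, 130 were lower in 4XKO ESC and higher in 4XKO EpiLC than in WT, 128 were higher in ESC and lower in EpiLC, 37 were lower in both, 65 higher in both, 1427 called in EpiLC but not in ESC, and 175 called in ESC but not in EpiLC. Wnt targets were among those with opposite signs. Axin2 was 30.0 ± 5.97 in 4XKO ESC and 198 ± 24.2 in WT ESC, but 89.2 ± 11.3 in 4XKO EpiLC and 23.4 ± 3.63 in WT EpiLC, a difference of -4.66 ± 0.21 log2 (adjusted p = 6.43e-16). Porcn was 55.7 ± 10.02 in 4XKO ESC and 249 ± 13.9 in WT ESC, but 665 ± 21.3 in 4XKO EpiLC and 66.0 ± 5.10 in WT EpiLC (-5.51 ± 0.13). Notum (-3.10 ± 0.18), Lhfpl2 (-4.11 ± 0.18) and Msc (-5.11 ± 0.19) showed the same reversal. In each of these genes the WT level was the higher one in ESC and the 4XKO level the higher one in EpiLC.

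A pair of naive genes that did not pass the test in ESC differed widely in EpiLC. Klf2 was 2226 ± 134 in 4XKO ESC and 2338 ± 146 in WT ESC, and 1786 ± 122 in 4XKO EpiLC and 86.7 ± 10.5 in WT EpiLC (-4.44 ± 0.13). Nr5a2 was 754 ± 55.9 in 4XKO ESC and 1013 ± 96.0 in WT ESC, and 741 ± 75.0 in 4XKO EpiLC and 27.9 ± 6.10 in WT EpiLC (-5.18 ± 0.23). The 4XKO levels of both genes in EpiLC were thus near those of naive cells. Otx2 turned the other way, at 852 ± 43.4 in 4XKO ESC and 458 ± 44.8 in WT ESC, but 1329 ± 29.1 in 4XKO EpiLC and 2438 ± 34.8 in WT EpiLC (1.77 ± 0.12, adjusted p = 8.48e-12). Dusp6 (1.30 ± 0.11) and Timp3, an inhibitor of matrix proteases (3.57 ± 0.29), were also higher in 4XKO ESC and lower in 4XKO EpiLC. Col4a1 was raised in ESC and not called in EpiLC (336 ± 27.1 in 4XKO EpiLC and 297 ± 5.37 in WT EpiLC), and the 2 differences were distinct (2.55 ± 0.15, adjusted p = 1.10e-13).

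**Figure D5:**
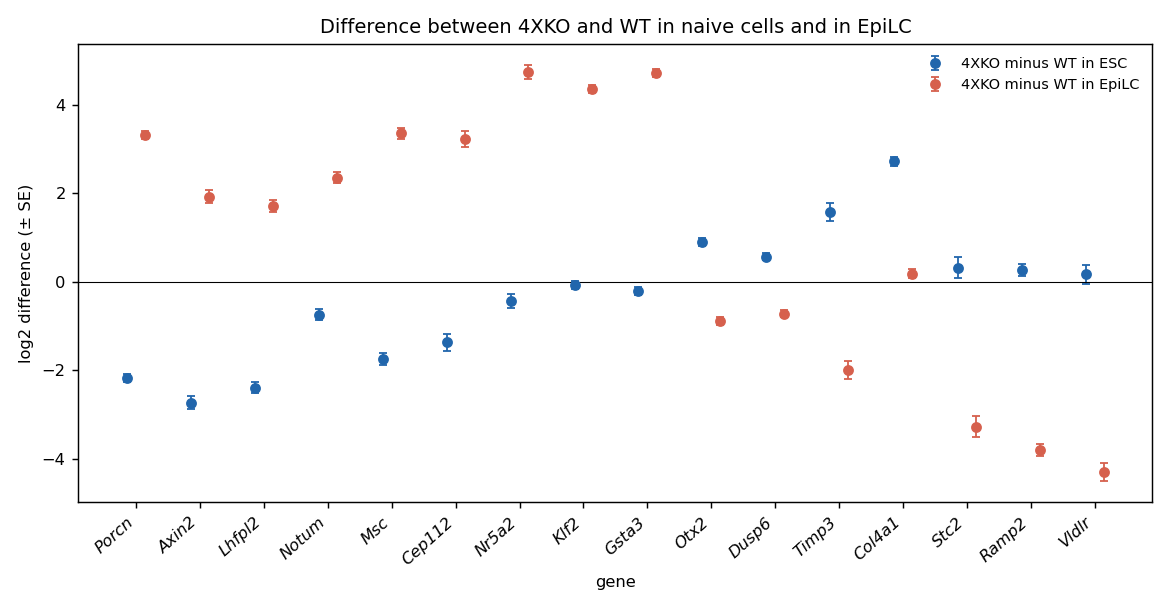
Log2 difference of 4XKO minus WT ± SE in ESC and in EpiLC for 16 genes, each from 3 arrays per group. Porcn, Axin2, Lhfpl2, Notum, Msc and Cep112 lie below 0 in ESC and above it in EpiLC, Nr5a2, Klf2 and Gsta3 lie near 0 in ESC and far above it in EpiLC, and Otx2, Dusp6 and Timp3 lie above 0 in ESC and below it in EpiLC.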

How the data were processed

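Total RNA of cultured ES cells was hybridised to single-colour Illumina mouse arrays. The deposited table holds 1 intensity per probe and array, which the authors had normalized before deposit (lumi and limma, per the submitters' processing notes, which give no version); some intensities are below 0, and no detection p value was used. Here values were floored at 1, taken to log2, quantile-normalized again and fitted with limma 3.58.1 in R 4.3.3, as a mean per group over 39 arrays in 13 groups, with a separate fit for the 8 other arrays. P values were adjusted by the Benjamini-Hochberg method over all 25697 probes and called below 0.05. A gene was read from its probe with the highest mean over the 39 arrays; 23978 probes have 1 gene symbol in the platform annotation, and 1719 have none. The background limit is the size of the lowest value in the set, 13.6 or 14.3. Where a group was below it on every array, the fold is a bound against that limit. The precision depends on the number of arrays and on how far a probe scatters across them, and counting depth does not apply to intensities.

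The 26 lists hold 347 genes, of which 316 were measured. The members and lists were chosen with earlier results of these data known. Named genes are those of the lists, the 12 largest called changes each way outside them with all arrays above the limit, and the 6 largest bounds each way. The 6 largest called changes each way were also taken against 3XKO, against KO, for ESC minus EpiLC and for CHIR99021, with all compared arrays above the limit. Between the 4XKO ESC and WT ESC arrays, deviations of same-numbered replicates correlated at 0.123, -0.032 and 0.105. Those of differently numbered ones lay between -0.322 and 0.268, so these arrays were not treated as pairs. Other groups were not examined in this way. The fit was checked on simulated intensities. Alternatives were no second normalization, cyclic loess, a floor at the limit, leaving out dim probes, trended and robust moderation, a replicate block, 1 probe per gene, the spread of the compared groups alone, leaving out 2 chromosomes, and leaving out each array. Promoters came from the RefSeq table for GRCm38.p6. Tables and figures used Python 3.11.15, pandas 2.3.3, numpy 2.4.6 and matplotlib 3.10.9.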

Additional observations from a re-analysis of the deposited data

Results flagged for a closer look

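The difference between 4XKO and WT was not the same in ESC and in EpiLC. Taken as the ESC difference minus the EpiLC difference and tested in the limma fit, it was called for 3695 probes. Negative values mean that 4XKO stood lower relative to WT in ESC than in EpiLC. Porcn reached -5.51, Nr5a2 -5.18, Msc -5.11, Gsta3 -4.92, Axin2 -4.66, Cep112 -4.60, Klf2 -4.44, Lhfpl2 -4.11 and Notum -3.10 log2. Cep112, a centrosomal protein gene, was 48.5 ± 9.58 in 4XKO ESC and 124 ± 8.84 in WT ESC, and 223 ± 15.6 in 4XKO EpiLC and 24.2 ± 5.45 in WT EpiLC. Gsta3, a glutathione transferase gene, did not pass the test in ESC (520 ± 3.36 in 4XKO ESC and 596 ± 20.4 in WT ESC) and stood at 1110 ± 45.4 in 4XKO EpiLC, with 42.4 ± 7.77 in WT EpiLC.

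Positive values were found for Vldlr (4.47), Ramp2 (4.07), Stc2 (3.60), Timp3 (3.57), Cebpb (3.40), Etv2 (3.40), Col4a1 (2.55), Otx2 (1.77) and Dusp6 (1.30). Vldlr, a lipoprotein receptor gene, had a level of 26.3 ± 5.14 in 4XKO EpiLC, against 514 ± 40.0 in WT EpiLC, and Ramp2, a receptor-modifying protein gene, had 62.3 ± 11.0 in 4XKO EpiLC, against 858 ± 34.0 in WT EpiLC. Timp3 was 118 ± 17.5 in 4XKO ESC and 39.6 ± 7.29 in WT ESC, against 34.6 ± 4.01 in 4XKO EpiLC and 137 ± 14.8 in WT EpiLC.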

How the results depend on the processing

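Probes called in 4XKO ESC minus WT ESC numbered 1190 (1 probe per gene) to 1683 (floor at the background limit) in all settings that used the spread of every group, and 1115 to 1293 with 1 array left out. With a spread estimated from the compared arrays only, 464 were called, against 1740 for 4XKO minus 3XKO and 1970 for 4XKO minus KO, and the list counts came to 0 naive genes lower, 1 FGF/ERK feedback gene higher, 1 formative gene higher and 4 of the genes lowered by CHIR99021 higher. That fit has fewer arrays behind each variance. Of 40 called list genes named in the text 20 lost their call there and 6 with 1 array left out, and of 39 outside the lists 8 and 5. Thy1, Fzd10, Lama1, Mapre2 and Tnnt1 were among those not called with that spread (adjusted p = 0.0647 to 0.207). Leaving out 1 array gave 2715 to 3067 probes against 3XKO, 2740 to 2934 against KO, 3307 to 3563 for ESC minus EpiLC and 59 to 82 for CHIR99021. It gave 6 to 7 Wnt targets lower, 1 naive gene lower, 3 to 4 FGF/ERK and 3 to 4 formative genes higher, 14 to 16 genes raised by CHIR99021 lower and 7 to 9 genes lowered by it higher. With the CHIR99021 lists themselves redrawn without 1 array, an alternative chosen after seeing the data, these counts were 4 to 8 and 1 to 5. Without chromosomes 1 and 6, also chosen after seeing the data for these pairs, 2639 probes were called against 3XKO and 2993 against KO. The CHIR99021 calls fell to 8 with a floor at the background limit and to 0 with the replicate block; the cause was not tested. The replicate block gave 1540 probes for 4XKO minus WT, 3431 against 3XKO, 3488 against KO and 3842 for ESC minus EpiLC, and the numbers share no source in the labels. Nanog lay between -0.25 (without WT replicate 1) and 0.00 (without WT replicate 3), with no call. Genes near the background limit have no measured order there, and elsewhere the precision depends on the number of arrays and the scatter of each probe.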

Other observations

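Some of the genes that changed in 4XKO ESC lie next to each other. These groups were chosen after their values were seen, and the order of protein-coding genes was taken from RefSeq. Over the whole array 4061 of 25697 probes had an unadjusted p under 0.05. On chromosome 13 the genes Bhmt, Bhmt2, Dmgdh, Arsb and Lhfpl2 follow one another, and 4 of the 5 were lower. Arsb, a lysosomal sulfatase gene, was below background in both lines. Bhmt and Bhmt2 transfer a methyl group to homocysteine, and Dmgdh acts on the dimethylglycine that Bhmt releases. Bhmt was 5.6, 7.9 and 9.8 in 4XKO ESC, all below background, and 20.5, 31.7 and 45.6 in WT ESC, at least 2.27-fold lower (adjusted p = 0.00205). Of the 4 protein-coding genes on each side 7 were measured and 5 were above background, and in the limma fit 0 were called and 0 had an unadjusted p under 0.05. Scamp1, next to Lhfpl2, was 761 ± 64.0 in 4XKO ESC and 772 ± 10.8 in WT ESC (-0.03 ± 0.08), and Homer1 was 113 ± 10.03 in 4XKO ESC and 126 ± 6.001 in WT ESC (-0.16 ± 0.11). Those above background thus stayed within 0.26 log2 of WT, while the 4 genes between them fell.

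Cep112 is the neighbour of Axin2 on chromosome 11, and both were lower in 4XKO ESC, Cep112 by -1.37 ± 0.19 (adjusted p = 1.07e-05). Of 8 genes around the pair 3 were above background, 1 was called and 2 had an unadjusted p under 0.05 in the limma fit. The called gene, Cacng5, was below background on all 4XKO arrays and 15.3 ± 2.67 in WT ESC. The other was Gna13, at 918 ± 14.7 in 4XKO ESC and 1298 ± 99.9 in WT ESC (-0.50 ± 0.20, adjusted p = 0.178). Col4a1 and Col4a2 adjoin on chromosome 8 and rose together. Of their 8 neighbours 5 were measured, 3 were above background, 0 were called and 1 had an unadjusted p under 0.05, with Irs2 at 24.6 ± 5.13 in 4XKO ESC and 44.2 ± 3.54 in WT ESC (-0.86 ± 0.30, adjusted p = 0.101).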
